A study of Ovis aries and Mus musculus with 10 samples.

Results

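The miR-181 family was represented on the array by 4 mature miRNAs, mmu-miR-181a, mmu-miR-181b, mmu-miR-181c and mmu-miR-181d, written below without the species prefix, of 567 mouse miRNAs in all. They were selected by name, because the family had been picked for a steady rise from virgin to lactation day 10 in mouse mammary gland. The mouse stage course is therefore described here without a test, and tests are given for the sheep arrays and for the difference between species. With the scaling described below, the label held for miR-181a, although its first step started from the floor. It also held for miR-181b, apart from a first step that could not be measured. It did not hold for miR-181c, which had a lower scaled signal at lactation day 2 than at gestation day 17, or for miR-181d, which was highest at gestation day 17. Without scaling, miR-181a was lower at lactation day 2 than at gestation day 17. In the authors' own value table, miR-181a and miR-181b were lower at gestation day 10 than in virgin gland.

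Total RNA from whole mammary gland was hybridised to 10 single-colour Agilent miRNA arrays, 5 from ewes and 5 from CD1 mice, an outbred strain. Ewes were sampled on day 15 of the cycle, on days 14, 64 and 125 of pregnancy and on day 60 of lactation. Mice were sampled as virgins, on days 10 and 17 of pregnancy and on days 2 and 10 of lactation. No treatment was given, the probes were designed for mouse miRNAs in both species, and each time point was 1 array without a replicate. The number of animals behind each RNA is not given in the sources used here, so the p-values measure only the spread between these samples. The mouse virgin and gestation day 10 arrays were those of slide 2, and slide 1 carried the remaining 8, so the mouse step to gestation day 17 also crosses slides.

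MicroRNAs are short RNAs that guide the Argonaute proteins to messenger RNAs through a seed near the 5′ end and lower their translation and stability. The members of the miR-181 family share their seed, and miR-181a and miR-181b are made together from more than one pair of neighbouring precursors, while miR-181c and miR-181d come from a pair of their own. The family is best known from lymphocytes, where miR-181a tunes the sensitivity of the T-cell receptor in developing thymocytes of mouse, and it is also studied in breast epithelium and in breast tumours.

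Per the probe annotation of the deposited files (mm9), the miR-181a probes matched chr1:139863054-139863067 on the minus strand. The miR-181b probes matched chr1:139863236-139863249 on the same strand, so that both targets lay within 196 bases. The miR-181c probes matched chr8:86702823-86702841 and the miR-181d probes chr8:86702658-86702674, both on the plus strand and within 184 bases. Each position is that of 1 precursor, and a mature miR-181a or miR-181b probe does not tell the precursors apart. The annotation gives no gene, exon or intron at these positions. Each member had 2 probes of 10 spots each. The probe targets were 13 and 14 bases long for miR-181a and miR-181b, 18 and 19 bases for miR-181c, and 16 and 17 bases for miR-181d. Cross-hybridisation between the members was not tested.

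Signals are given as the log2 of the processed signal relative to the array's own 75th percentile over the 94 mouse miRNAs detected on all 10 arrays. Values below -5.11 were set to it as a floor and have no order among themselves on this scale. The floor was the highest of the arrays' 5th percentiles of detected miRNAs. A floored value can therefore still be well above background on a brighter array. Before scaling, that percentile lay between 788 and 1998 arbitrary units on the sheep arrays and between 246 and 937 on the mouse arrays. It was lowest at lactation in both species. Between 156 and 208 miRNAs were detected on the sheep arrays and between 125 and 198 on the mouse arrays. No spot of the family was saturated, and the number of arrays limits the precision. Because whole gland was used, fewer cells of a type and less RNA per cell cannot be told apart.

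In sheep, miR-181a was measured above the floor and well above background on all 5 arrays. Its log2 scaled signal was -3.12 at cycle day 15, -2.61, -2.09 and -2.93 at gestation days 14, 64 and 125, and -2.98 at lactation day 60. It was highest at mid gestation, and its lactation value lay 0.05 below that of gestation day 125 and 0.15 above that of the cycle array. In mouse, miR-181a was at the floor in virgin gland, -4.89 at gestation day 10, -3.24 at gestation day 17, -2.08 at lactation day 2 and -0.68 at lactation day 10. After this scaling each mouse stage was higher than the one before it.

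For miR-181b, which is made beside miR-181a, the sheep values were -4.26 at cycle day 15, -4.07, -4.53 and -4.26 at gestation days 14, 64 and 125, and the floor at lactation day 60. The 3 gestation days lay within 0.46 of each other, and lactation was the lowest array. In mouse, miR-181b was at the floor in virgin gland and at gestation day 10, -3.29 at gestation day 17, -1.77 at lactation day 2 and -0.87 at lactation day 10. From gestation day 17 on it followed a course close to that of miR-181a.

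No sheep array gave miR-181c above the floor, although it was detected on 4 of them and well above background on 3. In mouse it was at the floor in virgin gland, -4.57 at gestation day 10, -3.83 at gestation day 17, -4.06 at lactation day 2 and -3.51 at lactation day 10. Its signal at lactation day 2 was 0.23 below that of gestation day 17 on the log2 scale, and its range over the mouse course was 1.60.

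miR-181d, its neighbour on chromosome 8, was the least detected of the 4 members, on 2 sheep arrays and 4 mouse arrays. It was not above the floor on any sheep array, and in mouse it was at the floor in virgin gland and at gestation day 10, -3.72 at gestation day 17, -4.44 at lactation day 2 and -4.67 at lactation day 10. At lactation day 10 it was 0.95 below gestation day 17 on the log2 scale.

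**Figure D1:**
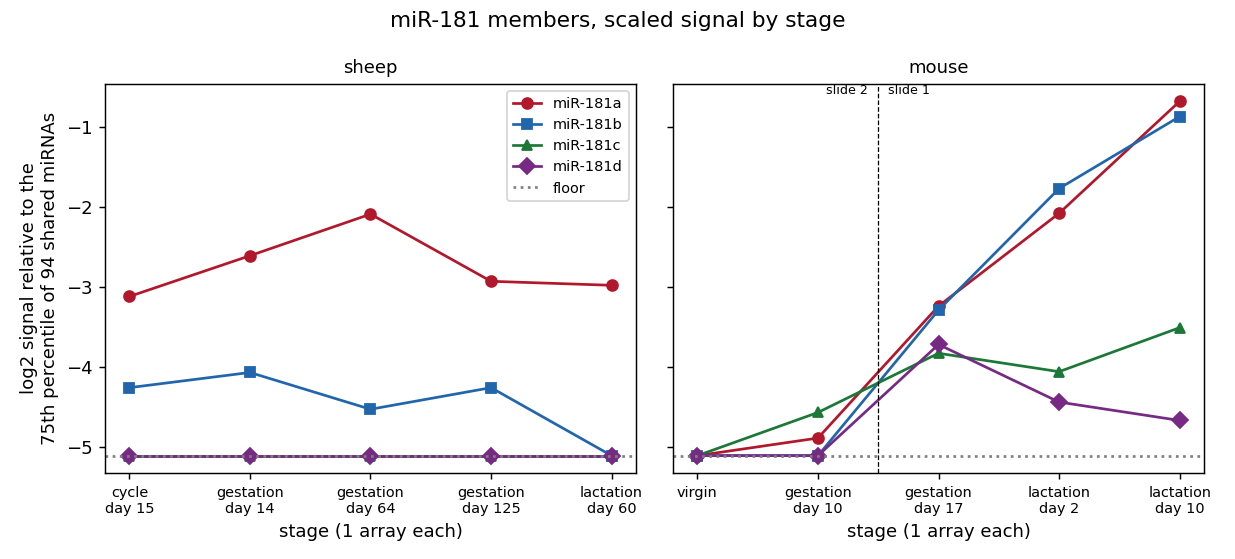
Log2 scaled signal of the 4 miR-181 members (vertical axis) by stage, with sheep left and mouse right; each point is 1 array and the dotted line is the floor of -5.11. In mouse, miR-181a and miR-181b reach -0.68 and -0.87 at lactation day 10, whereas in sheep both have ranges of 1.04 and miR-181c and miR-181d stay at the floor; the dashed line marks the change of slide.

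The passenger strands, the opposite arms of the miR-181a precursors, were also on the array. miR-181a-1*, from the chromosome 1 precursor, was detected on 3 sheep arrays and 2 mouse arrays, with unscaled signals between -0.806 and 14.9 arbitrary units. miR-181a-2*, from the other precursor, was detected on none of the 10 arrays. Both lay at the floor on every array, so no course could be followed for either.

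From virgin gland to lactation day 10 in mouse, miR-181a was higher by 4.43 on the log2 scale and miR-181b by 4.23. Because the virgin signals are at the floor, these are at least 21.6-fold for miR-181a and at least 12.2-fold for miR-181b, where the miR-181b bound uses the dimmest probe well above background on the virgin array. miR-181c was higher by 1.60, at least 1.96-fold, and miR-181d by 0.44, for which no fold is given because neither array had it well above background. Of the 156 miRNAs measured in mouse, 17.3% were higher at lactation day 10 by at least 1 on the log2 scale, and the median difference of all was 0.00. By the size of this difference miR-181a ranked 2, miR-181b 3, miR-181c 17 and miR-181d 54 of the 156. These ranks describe the contrast for which the family was picked.

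A rise at each of the 4 mouse steps was seen in 10.3% of the measured miRNAs, 16 of 156. That share was 1.17% of 171 without scaling and 0.637% of 157 in the authors' table as deposited. With the main scaling, miR-181a was one of the 16. Its successive log2 differences were 0.21, 1.65, 1.16 and 1.40, of which the 0.21 starts from the floor. miR-181b had no measurable first step and then 1.82, 1.52 and 0.90, of which the 1.82 starts from the floor. Within slide 1, lactation day 10 stood above gestation day 17 by 2.56 for miR-181a, which is 5.91-fold, and by 2.42 for miR-181b, which is 5.34-fold. For miR-181c that difference was 0.32, and for miR-181d it was -0.95. Within slide 2, gestation day 10 differed from virgin by 0.21 for miR-181a and by 0.54 for miR-181c, and the other two were at the floor on both arrays. Without scaling, the differences within slide 1 were 0.63 for miR-181a and 0.49 for miR-181b, of 3.31 and 3.40 against virgin, and -1.61 for miR-181c and -2.48 for miR-181d. Unscaled, most of the difference of miR-181a and miR-181b thus fell at the step that crosses slides, where slide and stage cannot be told apart.

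The unscaled signals gave a partly different course. Unscaled, miR-181a in sheep had 229 arbitrary units at cycle day 15, then 301, 367 and 123 over the gestation days, with 100 at lactation day 60. In mouse it had 15.5 in virgin gland, then 23.6 and 99.1 over the gestation days, with 93.5 at lactation day 2 and 154 at lactation day 10. The miR-181a signal at lactation day 2 was thus below that of gestation day 17 before scaling. In the authors' table as deposited, the first mouse step was -0.48 for miR-181a and -0.24 for miR-181b on the log2 scale. The rise of miR-181a at each step, and the first step of miR-181b, thus also depended on scaling. For miR-181a it depended on probe and background handling as well. With the brightest probe its first step was 0.00, at the floor, and under normexp only 2 of its 4 steps were up. miR-181b gave 105, 109, 67.5, 49.1 and 11.0 in sheep in stage order, and 11.4, 19.3, 95.6, 115 and 134 in mouse, where it was higher at each step without scaling. Such a rise was seen in 1.17% of the 171 miRNAs measured in that setting. Their median difference of lactation day 10 from virgin was -0.73.

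Without scaling, miR-181c gave 39.6, 28.3, 25.4, 18.0 and 3.10 arbitrary units in sheep and 12.1, 29.7, 65.9, 23.6 and 21.6 in mouse. The unscaled values of miR-181d were 15.2, 11.8, 4.71, 1.41 and -2.72 in sheep and 3.02, 19.9, 71.1, 18.2 and 9.67 in mouse. Both were highest at gestation day 17 in mouse, and for miR-181c the place of its highest mouse array therefore depended on scaling. The array at mouse lactation day 10, where miR-181a and miR-181b were highest, also had the lowest 75th percentile of all 10 arrays. With the percentile over all miRNAs, lactation day 10 minus virgin was 4.35 for miR-181a and 4.23 for miR-181b. Under quantile normalization these differences were 4.52 and 4.09. The part of that low percentile in the scaled rise was not tested beyond such changes of scaling.

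**Figure D2:**
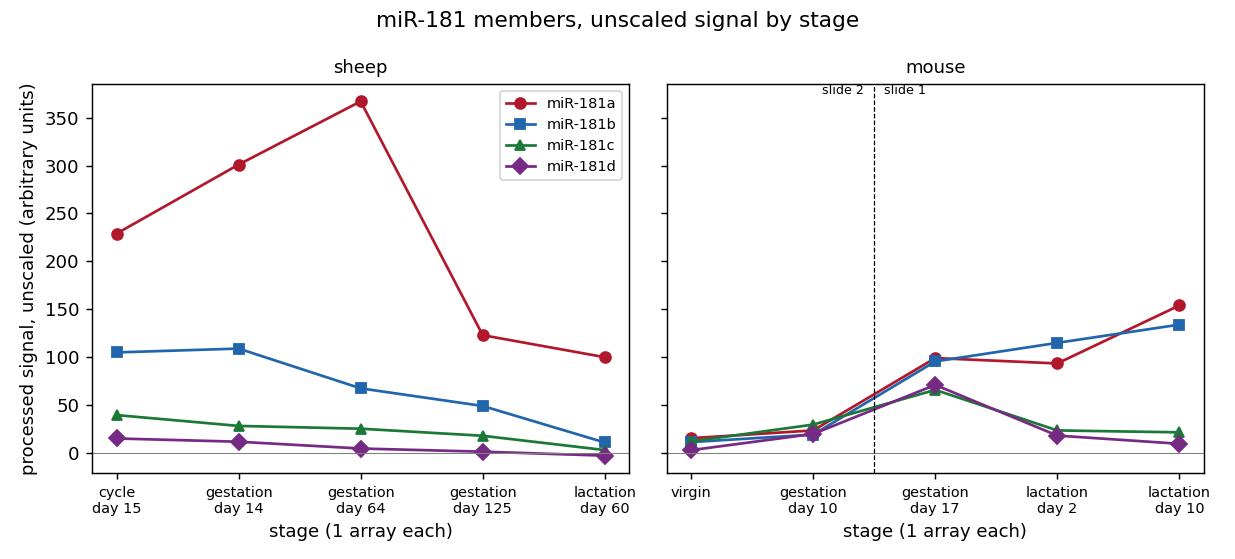
Processed signal before scaling, in arbitrary units (vertical axis), of the 4 members by stage, with sheep left and mouse right and 1 array per point. In sheep miR-181a is highest at gestation day 64 with 367, and in mouse miR-181c and miR-181d are highest at gestation day 17 with 65.9 and 71.1.

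On the mouse arrays the 2 probes of a member had their highest unscaled signal at the same stage. For lactation day 10 against gestation day 17 in mouse, the miR-181a probes differed by 2.58 and 2.56 on the log2 scaled scale, and both miR-181b probes by 2.42. The brighter miR-181a probe had 244 ± 8.9 arbitrary units at lactation day 10 (SD, 9 spots), against 158 ± 11.0 at gestation day 17 (SD, 10 spots). The brighter miR-181c probe had 30.9 ± 3.6 at lactation day 10 (SD, 9 spots), against 88.4 ± 5.8 at gestation day 17 (SD, 10 spots). For miR-181d the brighter probe had 17.1 ± 2.0 at lactation day 10, against 111 ± 8.2 at gestation day 17 (SD, 10 spots each). These errors cover spots within an array only, not animals. The dimmer miR-181d probe had 2.3 ± 2.3 arbitrary units at lactation day 10, which leaves its lactation course unmeasured.

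**Figure D3:**
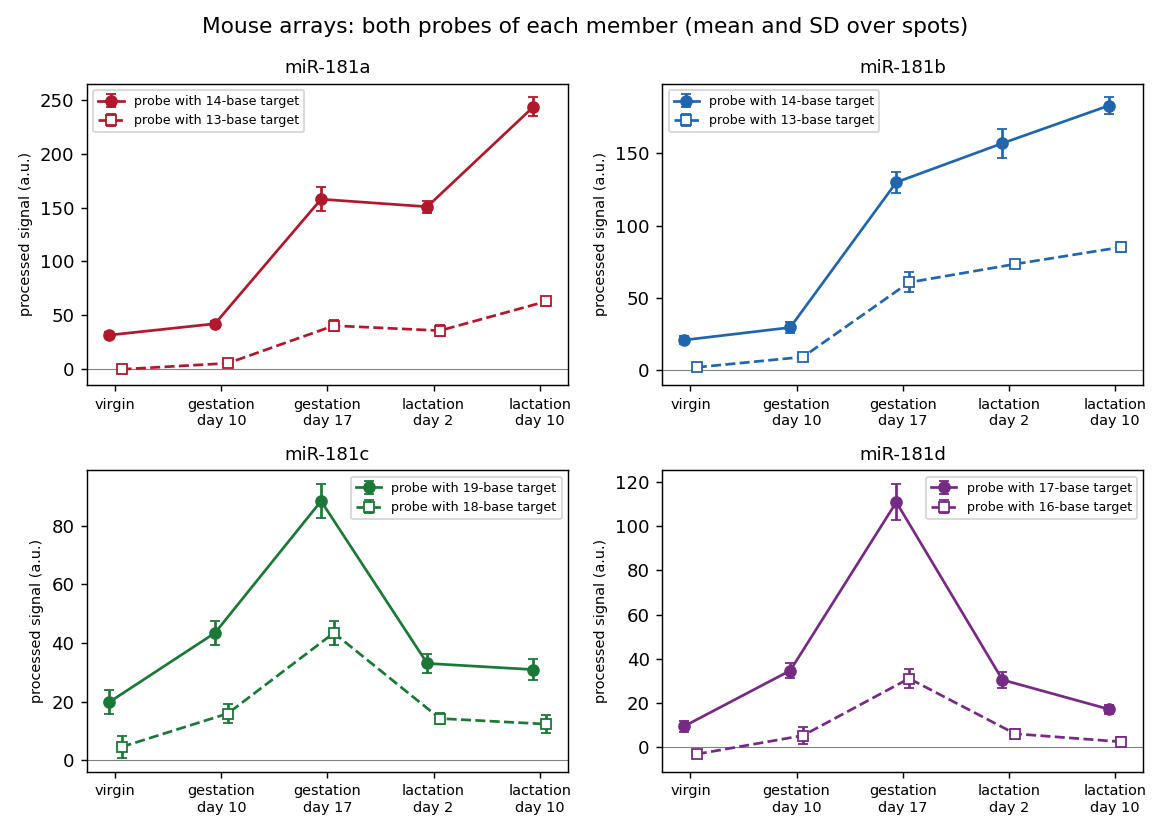
Processed signal in arbitrary units (vertical axis) of both probes of each member on the 5 mouse arrays in stage order; points are means over the spots kept and bars are SDs over spots. Both probes of miR-181a and of miR-181b are highest at lactation day 10, and both probes of miR-181c and of miR-181d at gestation day 17, before scaling.

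The sheep arrays had no part in the choice of the family. The slope per step of stage order was tested with limma over the 151 miRNAs measured in sheep, of which 0.0% had an adjusted p under 0.05, while 15 had an unadjusted p under that threshold. The slope of miR-181a was 0.00 ± 0.14 per step (SE, 95% interval -0.36 to 0.36, limma adjusted p = 1). For miR-181b it was -0.19 ± 0.11 per step (SE, 95% interval -0.47 to 0.09, limma adjusted p = 0.538). The mouse slopes of miR-181a and miR-181b were 1.17 and 1.18 per step. They are a description of the course for which the members were chosen, and the difference between the species' slopes was not tested. With the main scaling and floor, miR-181c and miR-181d were not tested in sheep, being at the floor throughout. Without scaling miR-181c was among 26 miRNAs called, all lower along the course, at -0.39 ± 0.08 per step (SE, limma adjusted p = 0.0498), where the median slope of all miRNAs was -0.36. With a floor 4 times lower its slope was -0.26 ± 0.15 (SE, limma adjusted p = 0.446).

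For lactation against gestation in sheep, miR-181a had -2.98 at lactation day 60 against -2.54 ± 0.42 over the 3 gestation days (SD). The difference was -0.44 ± 0.43 (SE, 95% interval -1.88 to 1.01, limma adjusted p = 0.814). miR-181b was at the floor at lactation, against -4.29 ± 0.23 over the gestation days, a difference of -0.82 ± 0.25 (SE, 95% interval -1.66 to 0.01, limma adjusted p = 0.354). The size of the miR-181b difference is set by the floor: it was -1.87 with a floor 4 times lower, -2.48 without scaling, -0.30 with the brightest probe and -0.36 in the authors' table as deposited, with none of these called. Of the 151 miRNAs tested, 0.662% were called, namely miR-375 alone, a miRNA of endocrine and epithelial cells, at 4.14 ± 0.10 (SE, limma adjusted p = 0.00979). miR-375 was at the floor on the cycle array and all 3 gestation arrays. The floor thus removed the spread behind its SE, and its difference is a lower bound. No adjusted p of miR-181a or miR-181b was under 0.05, and 1 lactation array carries the contrast. In this contrast the median of all tested miRNAs was -0.26. The sheep lactation array lay below all 3 gestation arrays for both members, by as little as 0.05 for miR-181a, as it did for 27.8% of the 151. Both mouse lactation arrays lay above both gestation arrays for both members, as for 29.5% of the 156 miRNAs measured in mouse, a contrast close to the one that chose them. Both patterns together were seen in 6.78% of the 118 miRNAs measured in both species. The sheep side of it turned for miR-181a under quantile normalization, where sheep lactation minus gestation was 0.02.

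The species were compared in an additive model with stage class (not pregnant, gestation, lactation), in which 31.9% of 185 miRNAs were called. miR-181a averaged -2.74 ± 0.41 in sheep and -3.20 ± 1.88 in mouse (SD, n = 5 arrays each), and its fitted difference, sheep minus mouse, was 0.74 ± 0.67 (SE, 95% interval -0.81 to 2.30, limma adjusted p = 0.42). miR-181b averaged -4.45 ± 0.41 in sheep and -3.23 ± 1.92 in mouse, with a fitted difference of -0.93 ± 0.75 (SE, 95% interval -2.68 to 0.82, limma adjusted p = 0.385). The intervals of both members take in 0 and differences of more than 2-fold. The mouse SDs reflect the stage course and not a spread of replicates.

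miR-181c was the 1 member of 4 with an adjusted p under 0.05 in this comparison, beside that background of 31.9%. It was at the floor in all sheep arrays, against -4.21 ± 0.63 in mouse (SD, n = 5 arrays), and the difference was -0.83 ± 0.24 (SE, limma adjusted p = 0.0352). It entered the fit only through its mouse arrays above the floor, so the difference could not come out positive. The sheep arrays added no spread, and no conclusion is drawn from this p-value. The call was lost without scaling, at -0.35 ± 0.45 (SE, limma adjusted p = 0.544), and when any of 7 arrays was left out. Over all 10 omissions the difference was between -1.06 and -0.64, with limma adjusted p-values between 0.0161 and 0.136. It was also lost under quantile normalization (-0.65), normexp (-0.04), the brightest probe (-0.47), the authors' table as deposited (-0.44), and when miRNAs at the floor were kept (-0.83, limma adjusted p = 0.0575). The call held with the percentile over all miRNAs (-0.89, limma adjusted p = 0.0254), in the authors' table with the same scaling, without the detection filter and with a floor 4 times lower (-1.80, limma adjusted p = 0.0126). With that lower floor miR-181d gave -2.06 ± 0.47 (SE, limma adjusted p = 0.00855), in a fit that called 93 of 211 miRNAs. Its range over the sheep arrays was then only 0.07, at or next to the floor. The floor thus set the size of the difference, and no conclusion is drawn from that p-value either. Whether the sheep miRNAs match these mouse probes was not tested, and a mismatch cannot be told apart from a lower level.

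Slide bears on the species comparison, since slide 2 held mouse arrays only. With slide as a term, the sheep minus mouse difference was -0.39 ± 0.59 for miR-181a (SE, limma adjusted p = 0.713), opposite in sign to the fit without it. For miR-181b it was -2.29 ± 0.60 (SE, limma adjusted p = 0.0321), for miR-181c -1.27 ± 0.19 (SE, limma adjusted p = 0.00389), and for miR-181d -1.00 ± 0.20 (SE, limma adjusted p = 0.0117). Within slide 1 alone, miR-181b gave -2.31 (limma adjusted p = 0.0684), miR-181c -1.30 (limma adjusted p = 0.00475) and miR-181d -1.00 (limma adjusted p = 0.0264). Leaving slide 2 out also leaves out the 2 mouse stages at which these members were lowest. The slide term likewise sets sheep largely against the later mouse stages. Both fits thus draw on the mouse course for which the family was picked, and miR-181c and miR-181d were at the floor throughout in sheep. No conclusion on species is drawn from these p-values. Of all miRNAs tested, 46 of 185 were called with slide as a term and 38 of 173 within slide 1.

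miRNAs with a similar mouse course were sought by the root mean square difference of centred log2 profiles over the 5 mouse arrays, against the mean profile of the 3 members detected on all of them, miR-181a, miR-181b and miR-181c. Among 103 candidates, with a median of 1.26, the closest were miR-200a at 0.18, miR-200b at 0.20, miR-200c at 0.25, miR-30b at 0.35 and miR-96 at 0.37. The miR-200 miRNAs maintain epithelial identity by repressing the ZEB transcription factors. Between single members, the same measure was 0.19 for miR-181a and miR-181b and 0.45 for miR-181c and miR-181d, against 1.21 for miR-181a and miR-181c. By mouse course with this scaling and floor, the 4 members thus formed 2 pairs, the same pairs as by position. Both pairs had limits. From gestation day 17 to lactation day 10, miR-181c differed by 0.32 and miR-181d by -0.95. In sheep, miR-181a minus miR-181b was 1.13 at cycle day 15 and 2.44 at gestation day 64. The profile averages unlike members, as the plot of mouse courses shows.

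Over all 10 arrays, with each species centred on its own mean, the closest of 92 candidates were miR-210 at 0.36, miR-30b at 0.39, miR-141 at 0.60, miR-202-3p at 0.63 and miR-365 at 0.64. miR-210 is a hypoxia-induced miRNA. In sheep it gave -4.43 at cycle day 15, -4.37, -3.90 and -4.08 at gestation days 14, 64 and 125, and the floor at lactation day 60. In mouse it gave -4.06, -3.25, -2.41, -2.23 and -1.16 in stage order. The nearest miRNA of the mouse course, miR-200a, was absent from this second list.

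**Figure D4:**
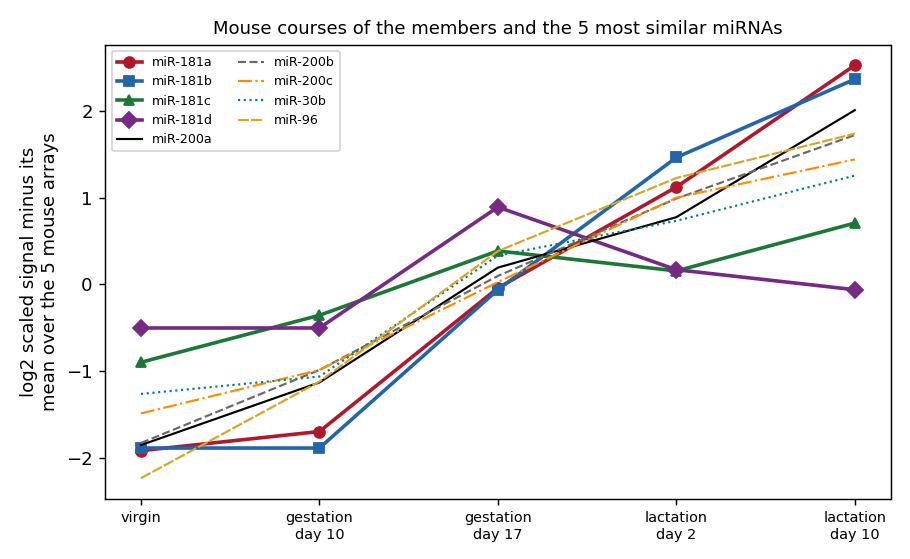
Log2 scaled signal minus its mean over the 5 mouse arrays (vertical axis) for the 4 members and the 5 miRNAs closest to the mean profile of miR-181a, miR-181b and miR-181c. miR-181a and miR-181b end above the 5 closest miRNAs at lactation day 10, and miR-181d turns down after gestation day 17.

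A list of 10 miRNAs studied in lactation was chosen with earlier results of these data known, so its values are only described. The slopes of these miRNAs in sheep had a median of 0.32 per step, against -0.03 over all miRNAs tested, and none was called. In mouse, 8 of the 10 were higher at lactation day 10 than in virgin gland by at least 1 on the log2 scale and none was lower by as much, with a median difference of 3.04 against 0.00 over all miRNAs. miR-148a, an abundant milk miRNA, differed by 3.85, and miR-375, at the floor in virgin gland, by 3.82. Of 10 immune and lymphocyte miRNAs, 7 were tested in sheep, and none was called for its slope. In mouse 6 were measured, of which miR-146b, a regulator of inflammatory signalling, differed by 5.78 and miR-223, a myeloid miRNA, by -1.63, and the other 4 stayed within 1 on the log2 scale. Over all mouse miRNAs measured, 17.3% were higher by at least 1 and 19.2% lower.

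Markers of cell types differed along both courses. All 6 epithelial markers, which apart from miR-205 were also on the lactation list, were above the floor on all 10 arrays. Their summed scaled signal was 5.28, 4.74, 3.86, 11.6 and 10.2 in sheep, given in stage order, and 1.80, 3.02, 6.54, 10.8 and 14.2 in mouse. In sheep miR-181a was highest at gestation day 64, where the epithelial sum was lowest, whereas in mouse the highest epithelial sums and the highest miR-181a signals were both at lactation. Not all listed markers followed the sum. miR-205, known from basal epithelium, was -1.11, -1.11, -0.09, -2.39 and -2.12 on the log2 scaled scale in sheep, highest at gestation day 64 like miR-181a. In mouse it was -3.12, -1.78, -1.00, -2.50 and -2.88, highest at gestation day 17. miR-429 in mouse was -0.13 at gestation day 17, 0.26 at lactation day 2 and -0.40 at lactation day 10. miR-141 was 1.48 and 1.47 on the 2 mouse lactation days. Of the 6 markers, 3 rose at each mouse step, namely miR-200a, miR-200b and miR-200c. The summed signal of 5 leukocyte markers was 0.878, 1.09, 0.854, 0.755 and 0.238 on the sheep arrays, and 0.529, 0.609, 0.516, 0.396 and 0.304 on the mouse arrays, lowest at lactation in both species. miR-150, miR-155 and miR-142-5p were at the floor on all 5 mouse arrays, and the other 2 leukocyte markers differed in course. In mouse miR-223 went from -1.36 in virgin gland to -2.98 at lactation day 10 on the log2 scaled scale. miR-142-3p was lowest in virgin gland at -2.98, with -2.25 and -2.51 at lactation days 2 and 10.

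The 5 stromal and smooth muscle markers on the array summed to 3.00, 2.72, 2.78, 1.22 and 0.832 in sheep, and to 2.66, 2.97, 1.75, 0.938 and 0.659 in mouse. From virgin gland to mouse lactation day 10, 3 of them were lower by at least 1 on the log2 scale, whereas miR-143 was higher by 1.02. The 4 striated muscle markers summed to at most 0.0926 in sheep, whereas they reached 1.94 in mouse virgin gland and 0.753 at mouse gestation day 17, with at most 0.0351 on the other 3 mouse arrays. The erythroid sum was between 0.151 and 0.620 in sheep and between 1.72 and 5.97 in mouse. In sheep only miR-451 of the 3 erythroid markers was above the floor. The endothelial sum was between 1.13 and 2.58 in sheep and between 1.41 and 2.22 in mouse. It was in effect the signal of miR-126-3p, since miR-126-5p was at the floor on all 10 arrays. The neural sum was at most 0.060 on any array, and the liver marker miR-122 was at the floor on all 10. The part of these markers in the miR-181 values was not tested.

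**Figure D5:**
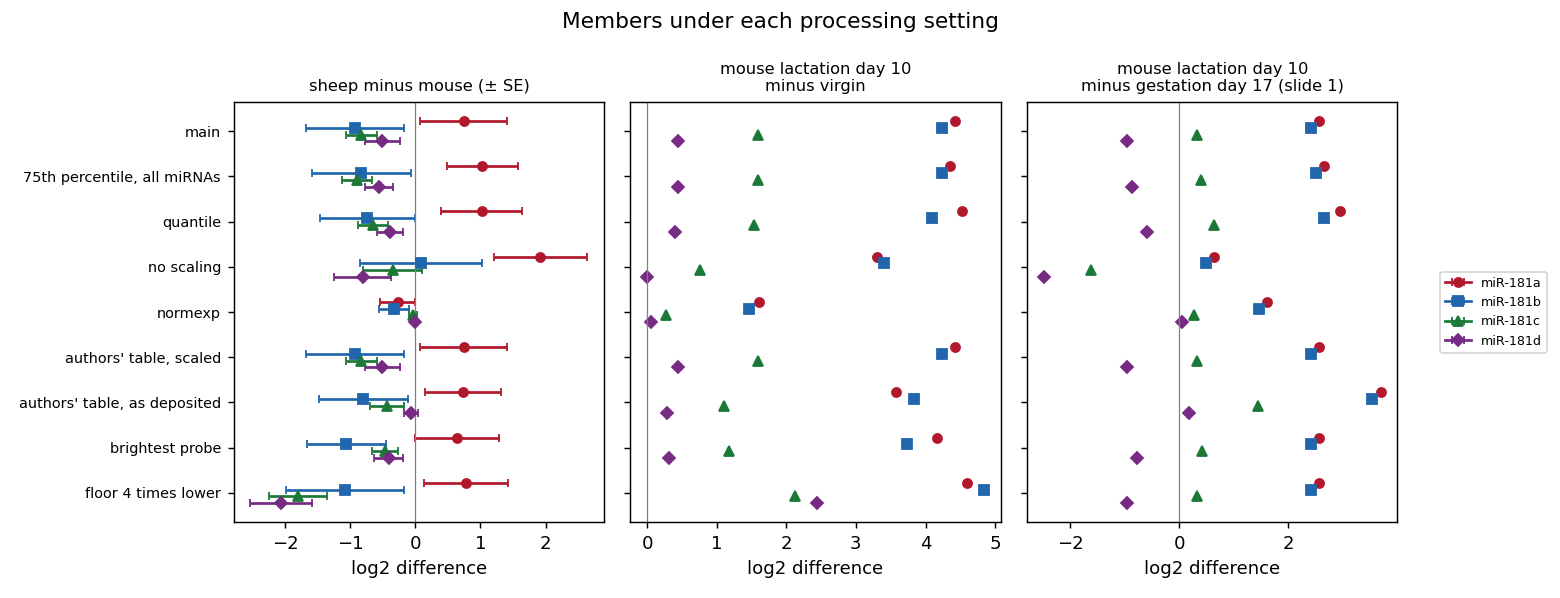
Log2 differences of the 4 members (horizontal axes) under each processing setting: sheep minus mouse with SE bars, mouse lactation day 10 minus virgin, and mouse lactation day 10 minus gestation day 17. The values of miR-181a and miR-181b at mouse lactation day 10 are positive in both mouse panels under all 9 settings, from 1.47 to 4.84 against virgin, while the sheep minus mouse difference of miR-181a is 0.74 in the main setting and -0.27 under normexp. The settings are not independent: the authors' table with the same scaling repeats the main mouse values. Under normexp, gestation day 17 is at the floor like virgin gland, so both mouse panels show the same values there.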

How the data were processed

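The deposited scanner files hold intensity values on a linear scale, background-subtracted and detrended per the file headers, with no scaling between arrays. Detection, outlier and background flags of 0 or 1 were deposited with them. The file headers name Agilent Feature Extraction 10.5.1.1, whereas the submitters' processing notes name 9.5. The authors' value table, also intensity, equalled the software's total signal times 1 constant per array within 0.1% for 98.65 to 100% of bright miRNAs. The basis and centring of the constants are unknown, and the column medians were -0.526, 0.307, 0.266, -3.94 and -2.80 in sheep and -11.2, -5.06, 0.836, -2.35 and -11.6 in mouse.

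Outlier spots were dropped, spots averaged per probe, and probes per miRNA. Arrays were scaled, floored and taken to log2 as given above. Viral miRNAs were left out. limma 3.58.1 in R 4.3.3 was used with Benjamini-Hochberg adjustment over all miRNAs tested (threshold 0.05). The species fit took miRNAs detected on at least 3 arrays, and the sheep fits those detected on at least 2 sheep arrays. Residual degrees of freedom were 6 for species, 3 for the slope and 2 for lactation. The fits were tested on simulated data. Alternatives covered scaling, signal, probe choice, floor, filter, slide, model and leaving out each array. The members, the lists and the rule for similar miRNAs were chosen with earlier results of these data known. Named miRNAs are the members, their passenger strands, the 5 most similar on each measure, the list members, and miRNAs called in sheep lactation. No miRNA sequences were used here.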

Additional observations from a re-analysis of the deposited data

Results flagged for a closer look

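miR-181a and miR-181b were noted because lactation minus gestation had opposite signs on the sheep and mouse arrays. For miR-181a it was -0.44 in sheep (limma adjusted p = 0.814) and 2.69 in mouse. For miR-181b it was -0.82 in sheep (limma adjusted p = 0.354) and 2.88 in mouse. Neither sheep difference passed the threshold, the median of all miRNAs in sheep was -0.26, and the mouse gestation days lie on different slides. In each case the sheep lactation array lay below all 3 gestation arrays and both mouse lactation arrays above both gestation arrays. For miR-181a, however, sheep lactation was only 0.05 below gestation day 125, and its 2 probes differed there by 0.00 and -0.06. For miR-181b the sheep lactation value was the floor. The difference between species was not tested, since the mouse values chose the members. Of 118 miRNAs measured in both species, 6.78%, 8 in number, had this pattern, and the other 6 were let-7i, miR-193, miR-193b, miR-210, miR-30d and miR-378. The sheep value of miR-181a was 0.24 in the authors' table as deposited and 0.02 under quantile normalization, so its opposite direction depended on scaling. Without scaling the mouse differences were 1.31 for miR-181a and 1.53 for miR-181b, and the miR-181a signal at lactation day 2 was then below that of gestation day 17.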

How the results depend on the processing

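No paired analysis was possible because no animal numbers are shared between arrays and every stage and day is 1 array. The species count of 59 calls was 23 under normexp, 19 in the authors' table as deposited (chosen after seeing the data), 93 with a floor 4 times lower, and 38 within slide 1 alone. Without scaling, 88 were called and 80.7% of them were higher in sheep, against 42.4% in the main setting; the median over all miRNAs was 0.74 without scaling and 0.02 with it. Leaving out each array gave 43 to 59. The 0 sheep slope calls were 26 without scaling, where the median slope was -0.36, and 2 with a slope per species over 10 arrays. The 1 sheep lactation call was 0 without scaling, with the lower floor and with 6 means, 5 under normexp, 2 in the authors' table as deposited, 6 with floor miRNAs kept, and 0 to 1 on leaving out a sheep array. Sheep minus mouse turned sign for miR-181a under normexp (-0.27), with slide as a term (-0.39) and within slide 1 (-0.38), and for miR-181b without scaling (0.09) and without the sheep lactation array (0.19). Leaving out arrays gave 0.24 to 1.66 for miR-181a and -1.48 to 0.19 for miR-181b. Sheep lactation minus gestation of miR-181a turned to 0.24 with all miRNAs in the percentile, 0.02 under quantile normalization and 0.24 in the authors' table. For mouse lactation day 10 minus virgin, the processing alternatives gave 1.61 to 4.59 for miR-181a, 1.47 to 4.84 for miR-181b, 0.27 to 2.12 for miR-181c and 0.00 to 2.44 for miR-181d, with -0.95 for miR-181d within slide 1. The causes were not tested.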
